A study of Mus musculus with 18 samples.

Results

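The genes described here encode the proteasome. They were chosen by symbol: every gene whose symbol begins with Psma, Psmb, Psmc, Psmd or Psme followed by a number, each read through the single-symbol probe set whose average over the 18 arrays was highest. The rule found 44 of the 18193 genes measured. They fall into 14 constitutive subunits of the core particle, 2 tissue-restricted core subunits, 4 immune subunits, 20 genes of the regulatory particle (3 of them assembly chaperones) and 2 other activators. The remaining 2, Psmc3ip and Psme3ip1, share the naming but encode interaction partners, not subunits, and were kept outside the classes.

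The proteasome degrades proteins that carry ubiquitin chains. Its barrel-shaped core particle holds the proteolytic sites on the inner beta rings, and the outer alpha rings gate the entry. A regulatory particle docks on the alpha rings, binds the ubiquitin chain, removes it and unfolds the substrate with a ring of ATPases. Cytokine signalling can replace the 3 catalytic beta subunits with immune counterparts, which change the peptides made for antigen presentation. In neurons, where expanded polyglutamine proteins accumulate in inclusions, the proteasome is studied as a route for their removal.

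Cerebellum from C57BL/6 mice was profiled on Affymetrix arrays, 3 arrays for each of 6 groups. The series examined models of spinocerebellar ataxia type 6 (SCA6), a disorder of the Cav2.1 calcium channel gene Cacna1a in which a polyglutamine tract is expanded. The 3 mutant groups, named as in the labels, were MPI 118Q/118Q knock-in, MPI 11Q/11Q knock-in and Sca6 CtmKO/CtmKO, called 118Q, 11Q and Ctm below; the number before Q is the labelled glutamine count. Each had 3 wild-type littermates of its own line. The design text gives an age of 6 weeks for the 118Q and Ctm mutants, and ages of the other groups were not used here. The labels give 3 mice in each group and number the arrays as replicates. P-values measure the spread between these samples, and the number of arrays limits their precision.

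Every level below is a log2 value after robust multi-array averaging (RMA), and a difference is the mean of 3 mutant arrays minus the mean of 3 wild-type arrays of the same line. Differences were tested with limma across all 18193 genes, and a gene passed at a Benjamini-Hochberg adjusted p under 0.05. Arrays correlated with each other at 0.981 to 0.996. The granule cell gene Gabra6 averaged 10.47 and the Purkinje cell gene Pcp2 10.56 on the 118Q wild types. Cacna1a ranged from 5.51 to 6.43 over the arrays. Because whole cerebellum was measured, fewer cells of a type and less RNA per cell cannot be told apart.

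Of the 44 genes, 39 had a chosen probe set among the brighter 50% of all genes. Within the core class the 18-array mean ran from 6.80 for Psmb3 to 8.39 for Psmb4. The regulatory ATPases ran from 6.93 for Psmc6 to 8.32 for Psmc5, the non-ATPases from 5.34 for Psmd13 to 8.06 for Psmd14, and the assembly chaperones from 4.46 for Psmd9 to 5.18 for Psmd5. Psme3 had 4.44 and Psme4 6.50. Psma8, known from testis, and Psmb11, known from thymus, both had 0.77, near the lowest signals of the array. Outside the classes, Psmc3ip had 2.70 and Psme3ip1 6.57. These are probe signals and do not order the genes by amount of RNA.

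No proteasome gene passed the test within any line. In the 118Q line 0 of 44 passed in either direction, against 1.54% of all genes. In the Ctm line 0 of 44 passed, against 0.929% of all genes, and in the 11Q line 0 of 44, where 0% of all genes did. At an unadjusted p under 0.05, limma gave 7 members higher in 118Q knock-in mice and 0 lower, where all genes gave 10.5% and 5.69%. The Ctm line gave 2 higher and 11 lower, against 4.72% and 7.29%. The 11Q line gave 0 in both directions, against 2.27% and 3.22%.

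**Figure D1:**
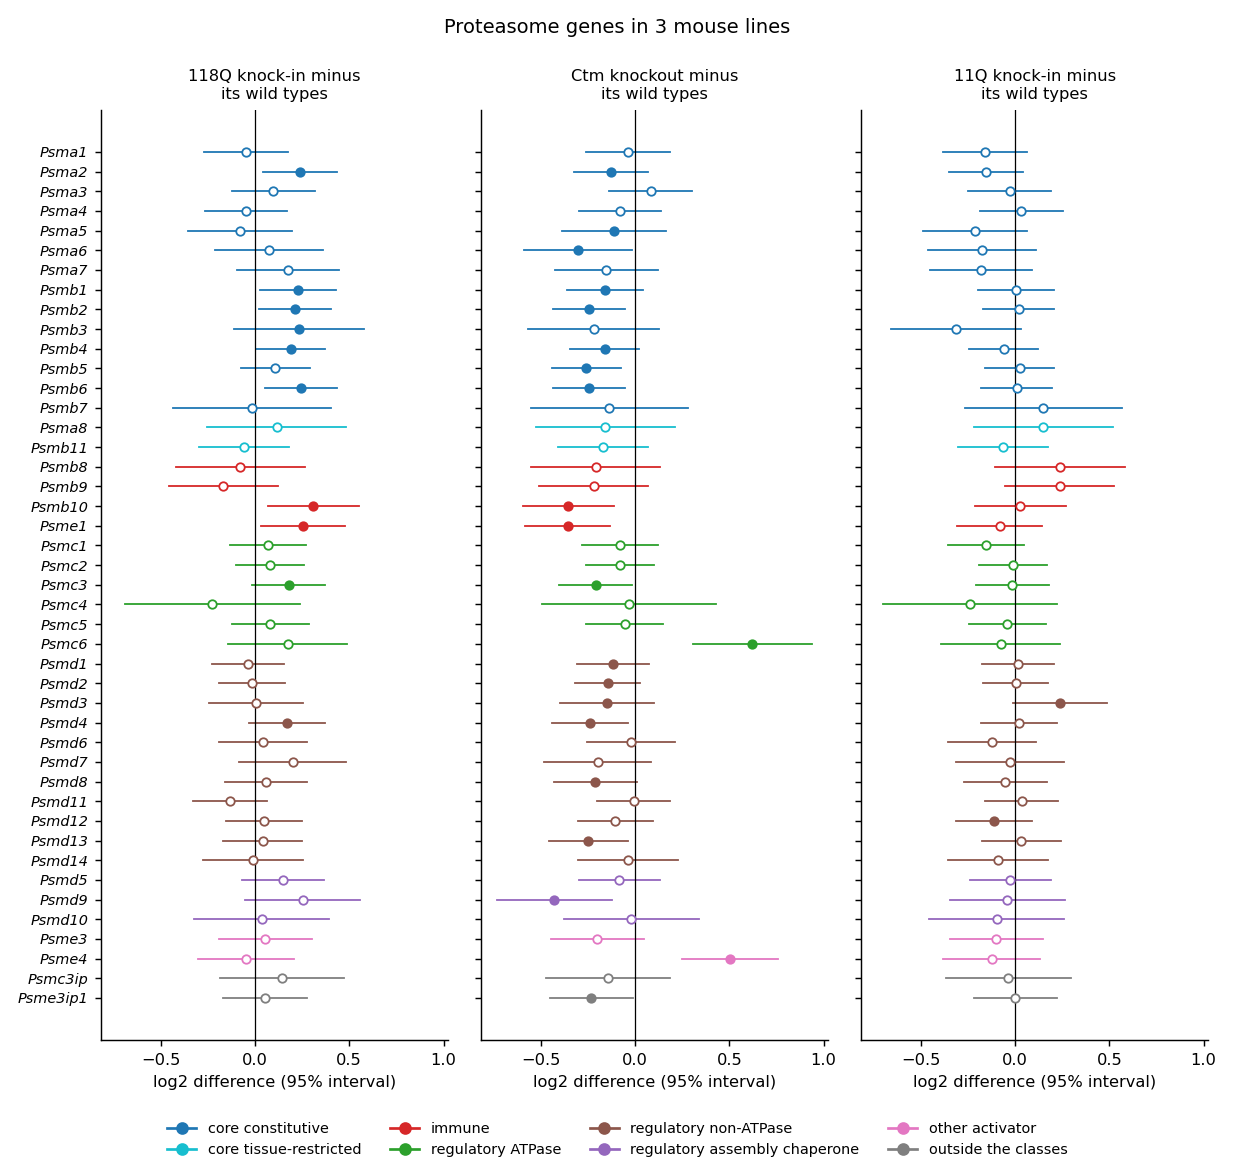
Log2 difference, mutant minus wild-type littermates, of each of the 44 genes in the 3 lines, with 95% intervals from limma; colours mark the classes, and a filled point marks a gene whose 3 mutant arrays all lay on 1 side of its 3 wild types. In the Ctm panel 41 of 44 points lie left of 0, with Psmc6 at 0.62 and Psme4 at 0.50 standing apart on the right.

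The signs of the differences opposed each other in the 118Q and Ctm lines. The difference was positive for 31 of 44 members in 118Q, or 70.5%, where 58.7% of all genes were positive. In Ctm it was negative for 41 of 44, or 93.2%, where 64.4% of all genes were negative. A positive 118Q difference with a negative Ctm difference was found for 29 of 44 members, or 65.9%, compared with 40.7% of all genes. The brighter 50% of genes, in which most members lie, were positive in 60.1% of cases for 118Q and negative in 68.1% for Ctm. Members share libraries and are not independent, so these counts carry no test. In 118Q the knock-in arrays lay wholly above their wild types for 10 members, where 16.6% of the brighter 50% of genes did so, and wholly below for 0 members, where 6.11% of all genes did. In either direction 18.1% of all genes had no overlap. The Ctm knockout arrays lay wholly below for 19 members, where 15.1% of all genes and 22.1% of the brighter 50% did so, and wholly above for 2, against 6.19%.

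**Figure D2:**
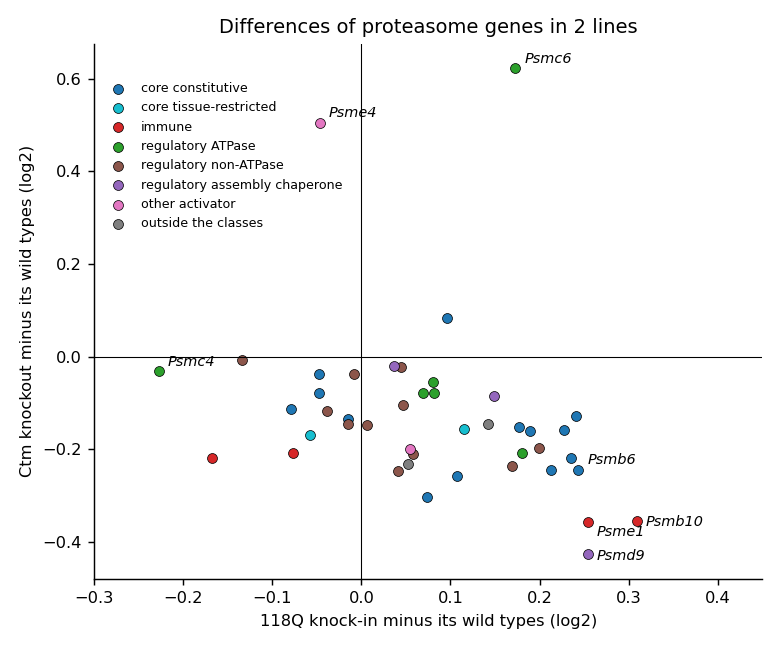
The 118Q difference (horizontal axis, log2) against the Ctm difference (vertical axis, log2) of each of the 44 genes, coloured by class; the 2 axes use different arrays. The lower right part, higher in 118Q and lower in Ctm, holds 29 genes, and Psmc6 and Psme4 lie far above the others.

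The core particle was mostly positive in 118Q and mostly negative in Ctm. Its 14 constitutive genes had a median 118Q difference of 0.14, with 10 positive. The median was 0.04 over all genes and 0.06 over the brighter 50%. In Ctm the core median was -0.15, with 13 negative and only Psma3 positive. All genes had a median of -0.06 there and the brighter 50% one of -0.09. In 11Q the core median was -0.04, with 8 negative, where all genes had a median of -0.02 and 54.3% were negative. The brighter 50% had a median of -0.04 in that line. None of the 14 core genes passed in a line. Psma2, a subunit of the gating alpha ring, read 7.94, 7.94 and 8.02 in 118Q knock-in arrays and 7.66, 7.70 and 7.82 in their wild types. All 3 knock-in arrays were above every other array of the series, and the difference was 0.24 (SE 0.09, limma adjusted p = 0.202).

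Among the structural beta subunits, Psmb1 had a 118Q difference of 0.23 (limma adjusted p = 0.243), Psmb2 of 0.21 (adjusted p = 0.246) and Psmb4 of 0.19 (adjusted p = 0.293). Psmb4 read 8.66, 8.55 and 8.71 in 118Q knock-in mice, the 3 highest values of the series, and 8.19, 8.25 and 8.15 in Ctm knockouts, the 3 lowest. A second, dimmer Psmb4 probe set had a 118Q difference of -0.26 (SE 0.24), so that the mean of both probe sets was -0.04. On its chosen probe set Psmb3 differed more between the 118Q and Ctm wild types than between genotypes in any line. Its 118Q wild types read 7.06, 7.30 and 7.21, while Ctm wild types read 6.42, 6.60 and 6.79. A second Psmb3 probe set showed no such offset, with 6.78, 6.93 and 6.78 in 118Q wild types and 6.69, 6.82 and 7.04 in Ctm wild types. Its 118Q knock-ins read 7.23, 7.10 and 7.23, above all of these. In all, the 118Q knock-in arrays were the 3 highest of 18 for 8 members (Psma2, Psmb1, Psmb3, Psmb4, Psmb6, Psmc3, Psmd4 and Psme1), where 4.41% of all genes had that pattern. The Ctm knockout arrays were the 3 lowest for 8 members (Psma6, Psmb4, Psmb5, Psmb10, Psmd4, Psmd8, Psmd13 and Psme1), where 2.45% of all genes did.

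The 3 catalytic core subunits did not share 1 pattern. Psmb6, which provides the caspase-like site, read 7.72, 7.67 and 7.72 in 118Q knock-in mice against 7.42, 7.45 and 7.50 in their wild types, without overlap. The difference was 0.24 (SE 0.09, limma adjusted p = 0.181), the smallest p of any member in that line. Ctm knockouts read 7.27, 7.34 and 7.40 against 7.48, 7.61 and 7.65, again without overlap, a difference of -0.24 (SE 0.09, adjusted p = 0.267). Against the 6 wild types of the other 2 lines the Ctm difference of Psmb6 was -0.05 (adjusted p = 0.704), since the Ctm wild types had the highest mean of the 3 wild-type groups. Psmb5, the chymotrypsin-like subunit, was 7.49, 7.59 and 7.49 in Ctm knockouts and 7.74, 7.76 and 7.84 in wild types, a difference of -0.26 (SE 0.09, adjusted p = 0.204), with 0.11 in 118Q. Psmb7, the trypsin-like subunit, spread widely within groups, from 7.42 to 8.09 over the 118Q wild types alone. Its differences were -0.01 in 118Q, -0.14 in Ctm and 0.15 in 11Q, each with SE 0.20. In 11Q, Psmb5 differed by 0.02 and Psmb6 by 0.01.

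The immune subunits split into a brighter pair and a dim pair. Psmb10, the immune counterpart of Psmb7, and Psme1, a subunit of an interferon-induced activator ring, had means of 5.00 and 5.27 over the arrays. Psmb8 and Psmb9, the immune counterparts of Psmb5 and Psmb6, had means of 2.46 and 2.32, at percentiles 37.5 and 36.4 of all genes. Psmb10 read 5.06, 5.49 and 5.33 in 118Q knock-in mice and 4.89, 5.06 and 5.01 in wild types, a difference of 0.31 (SE 0.11, limma adjusted p = 0.182), and the lowest knock-in array barely cleared the highest wild type. Without that array, 118Q knock-in replicate 1, the difference was 0.42 and passed (adjusted p = 0.0404). In the other 17 of 18 refits without 1 array Psmb10 did not pass in 118Q. In Ctm knockouts it read 4.68, 4.66 and 4.69, the 3 lowest values of the series, against 5.08, 4.83 and 5.19, a difference of -0.35 (SE 0.11, adjusted p = 0.182). Psme1 read 5.65, 5.51 and 5.51 in 118Q knock-in mice against 5.17, 5.35 and 5.39, a difference of 0.25 (SE 0.11, adjusted p = 0.244). In Ctm knockouts it read 4.97, 4.95 and 4.93 against 5.40, 5.05 and 5.47, a difference of -0.36 (SE 0.11, adjusted p = 0.133). For both genes the Ctm knockouts were tight and below every other array, while Ctm wild type replicate 2 lay closest to them.

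Psmb8 and Psmb9 showed no such separation. Psmb8 differed by -0.08 in 118Q, -0.21 in Ctm and 0.24 in 11Q, each with SE 0.16, and its groups overlapped in every line. Psmb9 differed by -0.17, -0.22 and 0.24, each with SE 0.14, also with overlap throughout. Psme2, the partner of Psme1, has no probe set of its own: the one that reads it is shared with Psme2b and has no single symbol. That shared probe set had differences of 0.26 in 118Q, -0.20 in Ctm and -0.12 in 11Q, each with SE 0.11, and its adjusted p over all probe sets was 0.263, 0.549 and 0.935.

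The test of the difference between lines called 3 proteasome genes. The 118Q difference exceeded the Ctm difference by 0.66 for Psmb10 (SE 0.16, limma adjusted p = 0.0390), by 0.61 for Psme1 (SE 0.15, adjusted p = 0.0390) and by 0.49 for Psmb6 (SE 0.13, adjusted p = 0.0475). These correspond to ratios of 1.58, 1.53 and 1.40 between the 2 fold changes. They are 3 of 44 members, where 1.84% of all genes were called in that direction, and 0 members were called in the opposite one, where 1.09% of genes were. Just short of the threshold were Psmb2 with 0.46 (adjusted p = 0.0588), Psmd9 with 0.68 (adjusted p = 0.0757) and Psme4 with -0.55 (adjusted p = 0.0850). Without Ctm wild type replicate 1 Psme4 (-0.72, adjusted p = 0.00846) and Psmc6 (-0.67, adjusted p = 0.0331) were called lower. Psmd9 was called without 118Q knock-in replicate 2 (0.85, adjusted p = 0.0451) and Psmb2 without 11Q wild type replicate 3 (0.46, adjusted p = 0.0478). Against its own littermates, each of the 3 called genes had a positive 118Q part and a negative Ctm part.

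**Figure D3:**
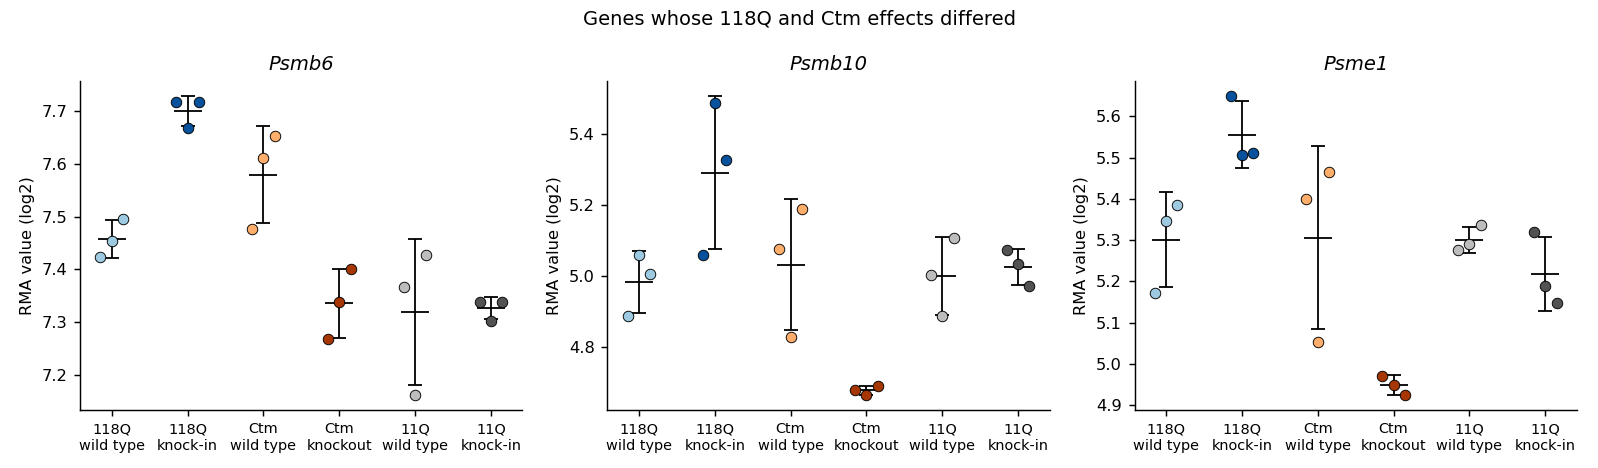
RMA values (log2) of Psmb6, Psmb10 and Psme1 on each of the 18 arrays by group; points are arrays, bars the mean and SD of 3. For Psmb10 and Psme1 the Ctm knockouts form a tight cluster below every other array, and for Psmb6 and Psme1 the 118Q knock-ins lie above every other array.

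All 3 calls sat close to the threshold. With the RNA quality measure as a covariate the differences were 0.61 for Psmb10 (limma adjusted p = 0.0940), 0.61 for Psme1 (adjusted p = 0.0878) and 0.44 for Psmb6 (adjusted p = 0.117). When only the 118Q and Ctm arrays were fitted the differences were the same, and the adjusted p was 0.0748, 0.0770 and 0.0751. When every probe set was tested 0 members were called higher. After repeated quantile normalisation Psmb10 missed the threshold (0.62, adjusted p = 0.0505). Without Ctm wild type replicates 2 and 3 together, which leaves that group with 1 array, the differences were 0.71, 0.70 and 0.38 and none was called. When 1 array at a time was left out, Psmb10 kept its call in 7 of 18 refits, Psme1 in 6 and Psmb6 in 4. The values moved less than the calls: from 0.57 to 0.78 for Psmb10, from 0.53 to 0.74 for Psme1 and from 0.45 to 0.54 for Psmb6, with adjusted p from 0.00955 to 0.122, from 0.0216 to 0.124 and from 0.0316 to 0.135. All 3 calls held without 11Q wild type replicate 2, 11Q wild type replicate 3 or 118Q knock-in replicate 1. None held without 11Q wild type replicate 1, 11Q knock-in replicate 2, 118Q wild type replicate 1 or 3, 118Q knock-in replicate 2 or 3, Ctm wild type replicate 3 or any 1 Ctm knockout. Psmb10 and Psme1 alone held without 11Q knock-in replicate 1 or 3 or Ctm wild type replicate 2, Psmb10 alone without 118Q wild type replicate 2, and Psmb6 alone without Ctm wild type replicate 1.

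The promoter windows of these 3 genes are printed because their levels moved apart between the 2 lines. Each runs from 250 bases before to 50 bases after the RefSeq start on GRCm38.p6, 5′ to 3′ on the gene's strand. Psmb6 lies at chr11:70525107-70525406 on the plus strand, Psmb10 at chr8:105938343-105938642 on the minus strand and Psme1 at chr14:55578244-55578543 on the plus strand. Capitals mark a match on either strand to TGACNNNGC, the core of the antioxidant response element bound by Nfe2l1 and Nfe2l2, or to GAAANNGAAA, the core of the interferon-stimulated response element.
Psmb6: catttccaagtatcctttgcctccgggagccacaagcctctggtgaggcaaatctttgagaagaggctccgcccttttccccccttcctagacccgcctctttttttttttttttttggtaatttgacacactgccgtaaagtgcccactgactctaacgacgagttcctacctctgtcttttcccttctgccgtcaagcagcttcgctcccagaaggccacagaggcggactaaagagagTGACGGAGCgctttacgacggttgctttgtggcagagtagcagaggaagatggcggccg
Psmb10: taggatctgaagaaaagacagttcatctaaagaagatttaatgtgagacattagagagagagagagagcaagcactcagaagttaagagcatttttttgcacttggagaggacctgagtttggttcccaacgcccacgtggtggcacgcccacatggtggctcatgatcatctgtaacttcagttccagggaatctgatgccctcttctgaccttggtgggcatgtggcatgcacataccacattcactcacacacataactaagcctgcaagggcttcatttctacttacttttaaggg
Psme1: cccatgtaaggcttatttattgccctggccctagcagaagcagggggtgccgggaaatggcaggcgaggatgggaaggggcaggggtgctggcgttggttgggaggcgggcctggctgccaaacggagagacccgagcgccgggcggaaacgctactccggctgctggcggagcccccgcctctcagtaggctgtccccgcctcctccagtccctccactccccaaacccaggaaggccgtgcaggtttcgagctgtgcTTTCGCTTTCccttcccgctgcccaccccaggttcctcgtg

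The Psmb6 window held 1 antioxidant response element core starting at position -9 relative to the start, and the Psme1 window held 1 interferon-stimulated response element core, on the opposite strand, from position 10. The Psmb10 window held no match to either. The table holds a single start for Psmb10, and whether it is the start used in cerebellum was not tested. Of the 44 genes, 37 matched a RefSeq promoter entry, with 40 windows in all; Psma8, Psmb1, Psmb2, Psmb7, Psmc3, Psmd3 and Psmd7 had none in the table. TGACNNNGC was found in 6 of 40 windows (Psmb5, Psmb6, Psmc6, Psmd9, Psmd12 and Psme4), compared with 12.4% of all 32851 windows. GAAANNGAAA was found in 4 of 40 (Psmb3, Psmd4, Psmd9 and Psme1), compared with 3.44%. CCAAT, the box bound by the Nfya, Nfyb and Nfyc complex, was found in 16 of 40, compared with 37.4%. Both strands were searched, none of the 3 patterns contains another, and a match describes the sequence only.

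Psme4 and Psmc6 ran against most other members in the Ctm line. Psme4 encodes a large activator that caps the core particle without needing ubiquitin, and Psmc6 is an ATPase of the regulatory ring. Psmc6 read 6.94, 6.85 and 6.97 in Ctm knockouts and 6.74, 6.07 and 6.08 in their wild types, a difference of 0.62 (SE 0.15, limma adjusted p = 0.0579). Psme4 read 6.46, 6.48 and 6.34 against 6.26, 5.83 and 5.68, a difference of 0.50 (SE 0.12, adjusted p = 0.0565). On the chosen probe sets of both genes the arrays that stood apart were the wild types, not the knockouts. The 3 Ctm wild types were the 3 lowest of all 18 arrays for both, a pattern that 1.97% of all genes had.

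**Figure D4:**
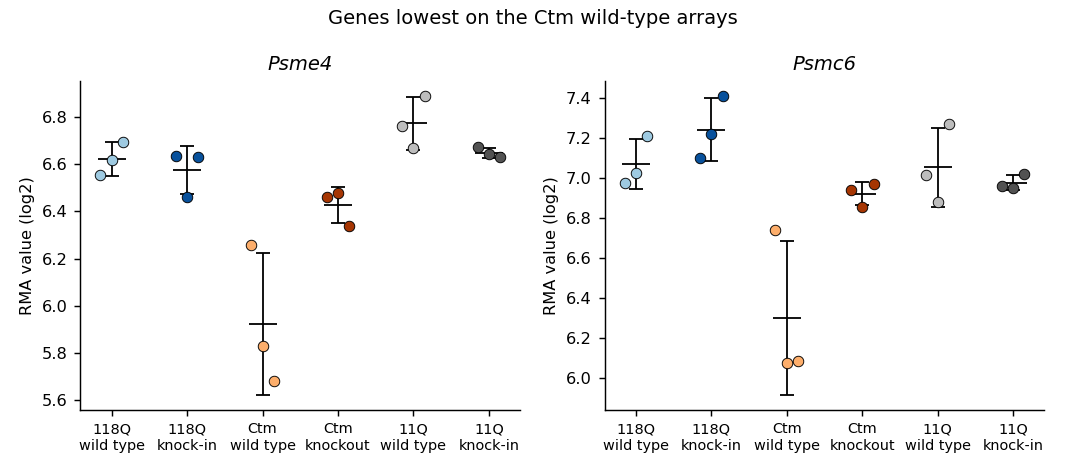
RMA values (log2) of Psme4 and Psmc6 on each of the 18 arrays by group; points are arrays, bars the mean and SD of 3. The 3 Ctm wild types lie below the other 15 arrays for both genes, and replicates 2 and 3 lie lowest.

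Set against the 6 wild types of the 118Q and 11Q lines instead, the Ctm knockouts differed by -0.27 for Psme4 (limma adjusted p = 0.104) and by -0.14 for Psmc6 (adjusted p = 0.519), so the sign turned. Without Ctm wild type replicates 2 and 3 the differences were 0.17 and 0.18. Without Ctm wild type replicate 1 both genes passed, with 0.67 for Psme4 (adjusted p = 0.000752) and 0.84 for Psmc6 (adjusted p = 0.000435), and without 11Q wild type replicate 3 Psmc6 passed (adjusted p = 0.0481). Other probe sets of these genes had Ctm differences of the same sign. The other 2 probe sets of Psmc6 had Ctm differences of 1.02 (limma adjusted p over all probe sets = 0.0400) and 0.85 (adjusted p = 0.135). On the dimmer one, with 1.02, knockouts read 5.19, 4.69 and 5.39 and Ctm wild types 4.42, 3.74 and 4.06. The 118Q knock-ins read 4.32, 3.86 and 3.88 there, so low values were not particular to the Ctm wild types. These other probe sets were not tested against the 6 wild types. The 6 probe sets of Psme4 all had positive Ctm differences, from 0.22 to 0.68.
Psmc6: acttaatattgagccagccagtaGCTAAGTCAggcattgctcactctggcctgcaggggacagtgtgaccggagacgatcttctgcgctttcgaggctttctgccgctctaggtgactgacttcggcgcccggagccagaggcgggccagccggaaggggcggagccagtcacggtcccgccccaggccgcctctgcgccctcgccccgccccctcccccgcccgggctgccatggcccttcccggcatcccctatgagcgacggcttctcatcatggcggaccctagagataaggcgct
Psme4: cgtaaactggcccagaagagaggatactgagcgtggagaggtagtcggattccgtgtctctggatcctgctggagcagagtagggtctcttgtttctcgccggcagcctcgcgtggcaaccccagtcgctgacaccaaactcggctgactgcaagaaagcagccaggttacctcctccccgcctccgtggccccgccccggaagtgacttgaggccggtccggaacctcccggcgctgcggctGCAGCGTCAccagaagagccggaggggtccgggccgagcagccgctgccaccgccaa

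The windows above are those of Psmc6, chr14:45329574-45329873 on the plus strand, and Psme4, chr11:30771525-30771824 on the plus strand, from RefSeq on GRCm38.p6, shown because the Ctm differences of these 2 genes stood apart from those of the other members. Each held 1 match to TGACNNNGC on the opposite strand, in capitals, starting at position -227 in Psmc6 and at position -7 in Psme4. Psmb6, which had a negative Ctm difference, also held such a match.

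The wild-type groups differed among themselves for 3 members. By limma's F test over the 3 wild-type groups, Psme4 (adjusted p = 0.000736), Psmc6 (adjusted p = 0.0039) and Psmd7 (adjusted p = 0.0120) passed, 3 of 44, where 9.78% of all genes passed. Psme4 averaged 6.62 ± 0.07 in 118Q, 5.92 ± 0.30 in Ctm and 6.77 ± 0.11 in 11Q wild types (SD, n = 3 each). Psmc6 averaged 7.07 ± 0.13, 6.30 ± 0.38 and 7.05 ± 0.20. Psmd7, the partner of the deubiquitinase Psmd14 in the lid of the regulatory particle, went the other way on its chosen probe set, with 6.37 ± 0.16, 6.94 ± 0.17 and 6.35 ± 0.23. It stayed at 6.78, 6.76 and 6.67 in Ctm knockouts, so its line offset was larger than its Ctm difference of -0.20. A second, dimmer Psmd7 probe set had the opposite offset, with 4.29, 4.26 and 4.30 in Ctm wild types. There 118Q wild types read 4.75, 4.44 and 4.68 and 11Q wild types 4.59, 4.53 and 4.71. The Psmd7 call was lost without Ctm wild type replicate 2 (limma adjusted p = 0.0764) or 3 (adjusted p = 0.0830). With averaged probe sets Psmd7 (adjusted p = 0.567) and Psmc6 (adjusted p = 0.0599) were both lost, and Psma1 passed (adjusted p = 0.0314). Without 11Q wild type replicate 1, Psmb3 and Psmb7 passed as well, giving 5 members, and without 11Q wild type replicate 3, Psmb3, Psmc4 and Psmd10 did, giving 6. The share of all genes passing this F test was not computed for any alternative or refit. Without Ctm wild type replicates 2 and 3 together, which leaves 1 Ctm wild type, 0 members passed. Line and littermate group cannot be told apart in these offsets.

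Most of the regulatory particle followed the sign of the core in Ctm. Of its 20 genes, 19 had a negative Ctm difference, with a median of -0.09, and 15 a positive 118Q difference, with a median of 0.05. The brighter 50% of all genes had medians of -0.09 in Ctm and 0.06 in 118Q, so both class medians were near that background. Of those brighter genes 68.1% were negative in Ctm and 60.1% positive in 118Q. All 11 non-ATPase subunits were negative in Ctm, with a median of -0.15. Psmd4, a receptor for ubiquitin chains, read 7.02, 7.16 and 7.13 in Ctm knockouts against 7.23, 7.35 and 7.45, a difference of -0.24 (SE 0.10, limma adjusted p = 0.314). The same gene read 7.84, 7.58 and 7.69 in 118Q knock-ins against 7.53, 7.53 and 7.54, a difference of 0.17 (adjusted p = 0.411). Its groups did not overlap in either line. Psmd13, a lid subunit, differed by -0.25 in Ctm (adjusted p = 0.311) and 0.04 in 118Q.

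Among the 6 ATPases, Psmc3 came nearest in 118Q, with 8.02, 8.02 and 8.06 in knock-ins against 7.76, 7.95 and 7.85, a difference of 0.18 (SE 0.09, limma adjusted p = 0.350). It differed by -0.21 in Ctm (adjusted p = 0.372), without overlap in both lines. Psmc4 had a 118Q difference of -0.23 with an SE of 0.22. A second, dimmer Psmc4 probe set went the other way, with 7.07, 7.03 and 7.16 in 118Q knock-ins against 6.89, 6.98 and 6.94, without overlap. In Ctm it read 6.75, 6.95 and 6.85 in knockouts against 7.03, 6.98 and 7.19 in wild types, also without overlap. The 3 assembly chaperones of the regulatory particle were positive in 118Q and negative in Ctm. Psmd9 read 4.16, 4.23 and 4.17 in Ctm knockouts against 4.56, 4.42 and 4.87, a difference of -0.43 (SE 0.15, adjusted p = 0.210). With its probe sets averaged the difference was -0.13. In 118Q it differed by 0.25 with overlap, since knock-in replicate 2 read 4.44.

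The class means by array place these differences on single arrays. Each value is the mean, over a class, of the deviation of each gene from its own mean over 18 arrays. The core class averaged 0.17 ± 0.10 in 118Q knock-ins and 0.06 ± 0.07 in their wild types (SD, n = 3 each), and 118Q knock-in replicate 2 at 0.06 lay within the wild-type range of -0.03 to 0.11. In Ctm the core class averaged -0.13 ± 0.01 in knockouts and 0.02 ± 0.06 in wild types, without overlap. The Ctm knockouts were below the wild types in the regulatory class too, at -0.08 ± 0.01 against 0.01 ± 0.05, and in the immune class, at -0.25 ± 0.05 against 0.04 ± 0.09. Among 11Q wild types, replicate 3 stood at 0.13 for the core class and the other 2 at -0.07 and -0.13.

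**Figure D5:**
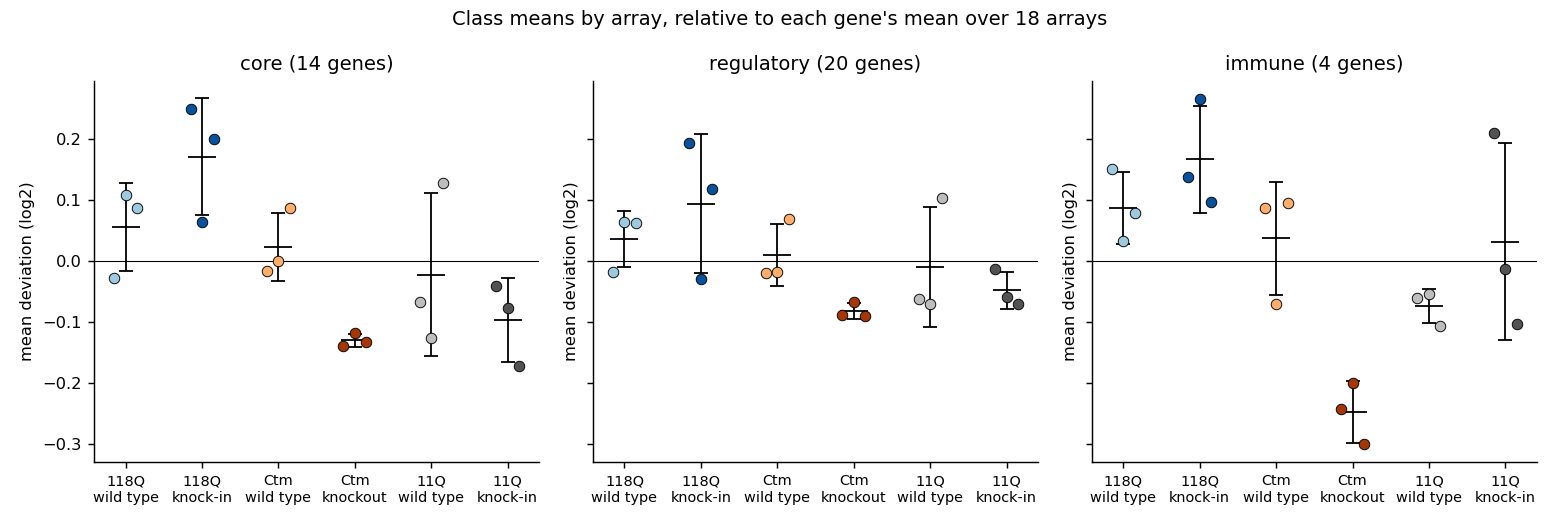
Mean deviation (log2) of the core, regulatory and immune genes from their own 18-array means on each array; points are arrays, bars the mean and SD of 3. The 3 Ctm knockouts lie between -0.14 and -0.12 for the core genes and between -0.30 and -0.20 for the immune genes, in both cases below their wild types.

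Measured against the 6 wild types of the other 2 lines, the Ctm difference was negative for 13 of 14 core genes, 17 of 20 regulatory genes and 4 of 4 immune genes, where 54.6% of all genes were negative. With that control limma called 7 members lower in Ctm knockouts (Psma6, Psmb3, Psmd4, Psmd13, Psmd14, Psme1 and Psme3), where 6.57% of all genes were lower, and 1 higher, Psmd7, where 3.15% were. On the second, dimmer Psmd7 probe set the Ctm knockouts read 4.26, 4.21 and 4.20, below all 6 of those wild types. With the same control limma called 3 higher in 118Q knock-ins (Psmb1, Psmb2 and Psmb6), where 5.54% of all genes were. Not every gene kept its sign: Psma3, Psmc6 and Psme4 turned negative, and Psmb7, Psmb11, Psmc4, Psmd3 and Psmd7 turned positive. In this comparison the Ctm knockouts differ from the controls in line as well as genotype.

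The 11Q line, with the shorter tract in the same MPI form, had no member near the threshold. The smallest p belonged to Psmd3, a lid subunit, with 6.49, 6.55 and 6.53 in knock-ins against 6.45, 6.40 and 6.01, a difference of 0.24 (SE 0.12, limma adjusted p = 0.876). Psmb3 followed with -0.31 (SE 0.16, adjusted p = 0.876), and its 11Q wild type replicate 3 read 7.29 where the other 2 read 6.44 and 6.56. Psma1, Psma2, Psma5 and Psmc1 had differences of -0.16, -0.15, -0.21 and -0.16, again with wild type replicate 3 the highest of its group. Knock-in and wild-type arrays were separated for Psmd3, the only member wholly higher, where 4.14% of all genes were, and for Psmd12, the only member wholly lower, where 6.12% were. The 118Q difference minus the 11Q difference called 0 members and 0% of all genes in limma, with 3 members at an unadjusted p under 0.05 in the positive direction, where 7.36% of all genes were: Psma2 at 0.39 (adjusted p = 0.322), Psmb3 at 0.55 (adjusted p = 0.419) and Psme1 at 0.34 (adjusted p = 0.452). The Ctm difference minus the 11Q difference also called 0 members and 0% of all genes, with 2 higher and 4 lower at an unadjusted p under 0.05, where 4.39% and 4.09% of all genes were. Its smallest p values belonged to Psme4 at 0.63 (adjusted p = 0.228) and Psmc6 at 0.70 (adjusted p = 0.270), while Psmb10 had -0.38 (adjusted p = 0.523). Without Ctm wild type replicate 1, Psme4 (0.80, adjusted p = 0.00414) and Psmc6 (0.92, adjusted p = 0.00508) passed.

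Beyond the subunits, 63 genes of the pathway were listed and 49 of them measured. In 118Q, 2 rose and 1 fell, in Ctm 1 rose, and in 11Q none passed, where 1.54%, 0.929% and 0% of all genes were called. Psmg4, a chaperone of core particle assembly, read 4.95, 5.05 and 5.10 in 118Q knock-ins against 4.49, 4.64 and 4.70, and rose by 0.43 (SE 0.10, limma adjusted p = 0.0387). Zfand2a, a stress-induced protein that associates with the proteasome, read 6.80, 6.95 and 6.93 against 6.51, 6.51 and 6.32, and rose by 0.45 (SE 0.09, adjusted p = 0.0240). Both separated the genotypes fully. Ubqln2, a shuttle that carries ubiquitinated proteins to the proteasome, read 8.67, 8.22 and 8.38 against 8.75, 8.94 and 9.03, and fell by 0.48 (SE 0.11, adjusted p = 0.0371). These 3 calls were lost when only the 118Q arrays were fitted (adjusted p = 0.243, 0.240 and 0.260 in the same order) and with the RNA quality measure as a covariate (adjusted p = 0.124, 0.0700 and 0.125). With the probe sets of each gene averaged they were lost too (adjusted p = 0.274, 0.0783 and 0.498). All 3 were lost without 118Q wild type replicate 3 or 118Q knock-in replicate 2 or 3. Those of Psmg4 and Ubqln2 were also lost without 118Q wild type replicate 2, 11Q knock-in replicate 2 or Ctm knockout replicate 1 or 2, and that of Psmg4 without 118Q wild type replicate 1, 11Q wild type replicate 1 or Ctm knockout replicate 3.

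In Ctm the gene that rose was Uba6, an enzyme that activates ubiquitin, with 5.33, 5.24 and 5.10 in knockouts against 4.88, 4.68 and 4.40, a difference of 0.57 (SE 0.12, limma adjusted p = 0.0280). As for Psme4 and Psmc6, the wild types were low, since 118Q wild types averaged 5.37 and 11Q wild types 5.56. Against those 6 arrays the difference was -0.24, and the call was lost when only the Ctm arrays were fitted (adjusted p = 0.170), with averaged probe sets (adjusted p = 0.193) and without Ctm wild type replicate 2 or 3 or any 1 Ctm knockout (adjusted p = 0.0648 to 0.235). The 118Q difference exceeded the Ctm difference for Psmg4 (0.68, adjusted p = 0.0239), Zfand2a (0.64, adjusted p = 0.0187) and Tapbp (0.59, adjusted p = 0.0421), which helps load peptides on major histocompatibility molecules, and fell short of it for Uba6 (-0.70, adjusted p = 0.0369). None of these 4 calls between lines held with the RNA quality measure as a covariate (adjusted p = 0.0509 to 0.0914) or with the 118Q and Ctm arrays alone (adjusted p = 0.0503 to 0.0714). With averaged probe sets Psmg4 (0.41, adjusted p = 0.0887), Uba6 (-0.45, adjusted p = 0.0657) and Tapbp (0.55, adjusted p = 0.0558) were lost, and Tapbp also after repeated quantile normalisation (adjusted p = 0.0658). Without 118Q knock-in replicate 3 or Ctm wild type replicate 3 none held either. In the other refits without 1 array Zfand2a was lost only without 118Q wild type replicate 3 and Psmg4 only without Ctm knockout replicate 1. Uba6 was lost without 118Q wild type replicate 2 or 3, 118Q knock-in replicate 2, Ctm wild type replicate 2 or any 1 Ctm knockout. Tapbp held only without 11Q wild type replicate 3, 11Q knock-in replicate 1 or Ctm wild type replicate 2. The 5 measured core assembly genes were all negative in Ctm, with a median of -0.25, and 4 of 5 were positive in 118Q. Of the 11 listed genes of transcription control, among them Nfe2l1 and Nfe2l2, 0 passed in any line, with 8 positive in 118Q and 9 negative in Ctm. Of the 9 measured antigen processing genes 0 passed in any single line, with 3 positive in 118Q, 1 in Ctm and 7 in 11Q.

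Other measures moved with the same groups. The RNA quality measure, the 3′ minus 5′ signal of control transcripts, was 0.41 to 0.47 in 118Q knock-ins and 0.50 to 0.61 in their wild types, without overlap, and 0.56 to 0.71 in Ctm knockouts against 0.55 to 0.66 in wild types. With it as a covariate, the 118Q difference was 0.20 for Psmb6 and 0.26 for Psmb10, and 11 of 14 core genes were positive. Of 12 measured microglia markers, 11 were positive and 4 rose in 118Q (Trem2, Tyrobp, Laptm5 and Cd68), and 9 were negative in Ctm with 0 called. Their mean deviation was 0.32 to 0.78 in 118Q knock-ins against -0.16 to 0.19 in wild types, and -0.25 to -0.12 in Ctm knockouts against -0.07 to 0.09. In 118Q, 3 of 6 Purkinje cell, 1 of 5 interneuron and 2 of 6 endothelial markers fell. The part of cell composition in the proteasome values was not tested. Choroid plexus markers, a sign of adjoining tissue, varied from -2.48 to 1.70 in mean deviation over the arrays, and with them as a covariate the 118Q minus Ctm difference kept all 3 calls and added Psmd9. The count of all genes called in either direction was 712 with that covariate and 533 without it.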

How the data were processed

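Total RNA of cerebellum was hybridised to Affymetrix arrays, 1 per sample. Per the submitters' processing notes, the authors summarised the arrays with RMA (version not given in the sources used here), and the deposited values are on a log2 scale, from -0.26 to 12.2. Of 45101 probe sets, 64 were controls, 34945 had 1 gene symbol and 10092 had several or none. The single-symbol probe set with the highest mean over 18 arrays stood for its gene, giving 18193 genes. Differences were fitted with limma 3.58.1 in R 4.3.3, with 6 group means on 18 arrays, a moderated variance (12 residual and 5.98 prior degrees of freedom) and Benjamini-Hochberg adjustment over all genes. The fit was tested on simulated data.

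The members and lists were chosen with earlier results of these data known. Named with values were every called member, the 8 members of smallest p in each line, the 3 of smallest p in each difference between lines, the constitutive catalytic and immune subunits, the brightest and dimmest member of each class, and called pathway genes; others were named after their values were seen. Replicate numbers were not taken to pair the samples. Correlations of deviations ran from -0.20 to 0.23 between same-numbered arrays of a line and from -0.29 to 0.27 between the others. With 3 arrays in each group this check cannot exclude pairing. Alternatives changed the probe set rule, the filter on dim genes, the variance model, array weights, normalisation, covariates, the control group and the arrays included. Sequences are from RefSeq.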

Additional observations from a re-analysis of the deposited data

Results flagged for a closer look

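For 3 genes the mutant minus littermate difference was not the same in the 118Q and Ctm lines by limma's test of the difference itself, adjusted over all genes. The 118Q difference minus the Ctm difference was 0.66 on the log2 scale for Psmb10, 0.61 for Psme1 and 0.49 for Psmb6. In each case all 3 118Q knock-in arrays were above their wild types and all 3 Ctm knockout arrays below theirs. Against the 6 wild types of the other 2 lines, the Ctm difference was -0.05 for Psmb6, -0.31 for Psmb10 and -0.35 for Psme1. The 3 calls between lines were close to the threshold: in 18 refits without 1 array, Psmb10 kept its call in 7, Psme1 in 6 and Psmb6 in 4. A Dixon test of outlying values was not run, since it was set for groups of at least 4 samples.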

How the results depend on the processing

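The report's counts of called proteasome genes were recomputed under 13 alternatives over all arrays, 12 of them for differences between lines, and in 18 refits without 1 array. For Ctm higher, the count of 0 became 2 with averaged probe sets, after dropping the dimmer 50% of genes, with a trended and robust variance, with array weights and with repeated quantile normalisation, each time Psmc6 and Psme4, and 1 with every probe set or against the 6 knock-in-line wild types. Ctm lower became 7 with those 6 wild types, where 6.57% of all genes were called lower. The 118Q higher count became 3 with array weights (Psma2, Psmb6 and Psmb10) and 3 with the 6 wild types, where 5.54% of all genes were called higher. For the other settings of the Ctm and 118Q counts no share of all genes is given. Those counts are therefore not read as results about the members. The 118Q minus Ctm count of 3 higher became 8 after dropping the dimmer 50%, 9 with array weights, and 0 with every probe set, with RNA quality as a covariate, with the compared lines alone and without Ctm wild type replicates 2 and 3; its count of 0 lower became 1 with averaged probe sets, with every probe set, after dropping the dimmer 50% and with array weights. The wild-type F test's 3 became 6 with array weights and 0 without Ctm wild type replicates 2 and 3, which leaves 1 array in that group. Ctm minus 11Q higher became 1 with array weights. Counts over all genes moved with the settings too. For 118Q minus Ctm, in either direction, 533 genes in the main fit became 1061 after dropping the dimmer 50% and 1893 with array weights. The count was 67 with RNA quality as a covariate, 81 with the compared lines alone and 570 probe sets with every probe set. Leaving out 1 array gave 0 to 1 for 118Q higher, 0 to 2 for Ctm higher, 0 to 4 and 0 to 2 for 118Q minus Ctm higher and lower, 0 to 2 for Ctm minus 11Q higher and 2 to 6 for the F test. In those refits all genes called, in either direction, numbered 2 to 941 in 118Q and 1 to 447 in Ctm. They numbered 24 to 1021 in 118Q minus Ctm and 0 to 282 in Ctm minus 11Q. The count of all genes called ranged from 0 to 1740 in 118Q, from 1 to 1769 in Ctm and from 6 to 1893 in 118Q minus Ctm.

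Some differences turned sign. In 118Q, Psmb4 became -0.037 with averaged probe sets, Psmb7 0.14 with RNA quality as a covariate, and Psmb7 0.0013, Psmb8 0.070 and Psmb9 0.015 with the 6 wild types. In Ctm, the 6 wild types gave -0.27 for Psme4, -0.14 for Psmc6, -0.24 for Uba6 and 0.45 for Psmb7, and Psmb7 was 0.024 without Ctm wild type replicates 2 and 3. In 11Q, the choroid plexus covariate gave -0.018 for Psmb5, -0.053 for Psmb7 and -0.062 for Psmb10, and the 6 wild types -0.015 for Psmb5 and -0.062 for Psmb6. Without 1 array, Psmb7 ranged from -0.15 to 0.18 and Psmb8 from -0.22 to 0.049 in 118Q, and Psmb5 from -0.0045 to 0.079, Psmb6 from -0.071 to 0.062, Psmb7 from -0.0043 to 0.37 and Psmb10 from -0.029 to 0.081 in 11Q. The causes were not tested. With the replicate number as a block, 118Q minus Ctm called 2 members higher, Psmb10 and Psme1 (adjusted p = 0.0479 each), and Psmb6 missed (adjusted p = 0.0539), as did Psmg4 (adjusted p = 0.0540) and Ubqln2 (adjusted p = 0.0507) in 118Q. The 6-wild-type control gives no difference between lines. Dim probe sets such as those of Psmb8 and Psmb9 limit what can be measured.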
